A study of Mus musculus with 36 samples.

Results

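The age difference of wild type mouse liver was measured by setting 1 pool of liver RNA from mice aged 24 months against 1 pool from mice aged 5 months. The 6 arrays of these pools, 3 technical arrays of each, were taken from the 36 arrays of the series by their labels alone. The young pool held RNA of 6 mice and the old pool RNA of 5 mice, all male C57Bl/6 with both copies of Myc. The series was made to follow ageing in mice that carry a single working copy of Myc (Myc+/-), so the wild type pair gives the age difference of normal liver. The Myc+/- liver pools of the same ages (5 mice at 5 months, 8 mice at 24 months), and the muscle and adipose pools of the same wild type mice, are used only for comparison. Arrays of a pool repeat 1 RNA mixture, so the spread between mice was not measured. What separates the pools besides age (the hour of sacrifice, not given in the sources used here, or which of the 2 homogenization methods named in the labels was used) cannot be told apart from age.

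The values are log2 expression values per probe set of the Affymetrix Mouse Gene 1.0 ST array, which reads most exons of a gene. Of the probe sets with 1 gene symbol, 13073 with a mean above the 40th percentile in liver were tested, and they stand for 11923 genes. A gene with several probe sets is given by its brightest one. A difference is the 24-month mean minus the 5-month mean on the log2 scale, so that 1 is a doubling, and ± is the SE of a limma fit over single arrays. A probe set is called when its Benjamini-Hochberg adjusted p is under 0.05 and it differs at least 1.5-fold. Such a call says that 2 RNA mixtures differed beyond array-to-array error, and no more. A second limma fit took the pool as the unit and gave the age difference averaged over wild type and Myc+/- liver, with its error taken from how far age differences varied between genotypes.

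Hepatocytes, the main cell type of the liver, make most plasma proteins and run much of the body's carbohydrate, lipid and steroid metabolism. Inflammatory signals make them secrete acute-phase proteins, the circadian clock sets daily cycles in many of their transcripts, and the pulses of growth hormone of the male set a male pattern of steroid and drug metabolism. Resident macrophages (Kupffer cells), endothelial, stellate and bile duct cells and passing leukocytes add their own RNA. In a whole-tissue pool, more cells of a type and more RNA per cell cannot be told apart.

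The label of the tissue held for both pools. The 13 hepatocyte markers, which include Alb and Apoa1, had 0 calls and a median difference of -0.01. Their summed linear signal was 238100 to 241300 on the 5-month arrays and 232400 to 234600 on the 24-month arrays. Apoa1, the main protein of HDL, differed by -0.33 ± 0.11, and Hnf4a, a transcription factor that keeps hepatocyte identity, by 0.43 ± 0.09, neither of them called. Myc itself read 8.61, 8.43 and 8.68 on the 5-month arrays and 8.53, 8.55 and 8.60 on the 24-month arrays, a difference of -0.02 ± 0.09 with overlapping arrays.

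Of the tested genes, 1192 (10.0%) were called higher and 460 (3.86%) lower in the 24-month pool. Over probe sets these were 1309 (10.0%) higher and 568 (4.34%) lower, which makes 69.7% of the calls higher. That split rests on the scaling of the arrays: with arrays centred on their medians it was 44.6% (834 higher, 1036 lower), and with quantile normalization repeated over the liver arrays it was 55.9%. Centring moved the median difference of the tested probe sets by -0.138, so differences near that size have no settled direction. The median difference of all tested genes was 0.07 as deposited. With arrays centred 6.36% of the tested genes were called higher and 7.34% lower, the shares against which the centred counts of the gene lists stand. The counts of the lists as deposited stand against 10.0% higher and 3.86% lower. The difference was at least 2-fold for 355 probe sets higher and 132 lower, and at least 4-fold for 28 and 18.

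In Myc+/- liver 1103 probe sets (8.44%) were called higher and 448 (3.43%) lower with age. Of the 1309 probe sets higher in wild type, 804 were also called higher in Myc+/- liver, which is 61.4% of the wild type and 72.9% of the Myc+/- calls. Of the 568 lower, 327 were called lower in both, or 57.6% and 73.0%. Age differences of the genotypes correlated across probe sets (Pearson's r 0.818, Spearman's rho 0.827), a description over probe sets, which are not independent. The age difference itself differed between genotypes (array-level limma, same thresholds) for 161 probe sets (1.23%) that were more positive in wild type and 157 (1.20%) more negative. At the pool level, 3989 probe sets (30.5%) were higher and 2258 (17.3%) lower with age at adjusted p under 0.05, without a minimum fold. Array 1 of the Myc+/- 5-month pool stood apart, with lower readings of the brightest probe sets. Without it the differences between genotypes numbered 174 and 145.

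**Figure D1:**
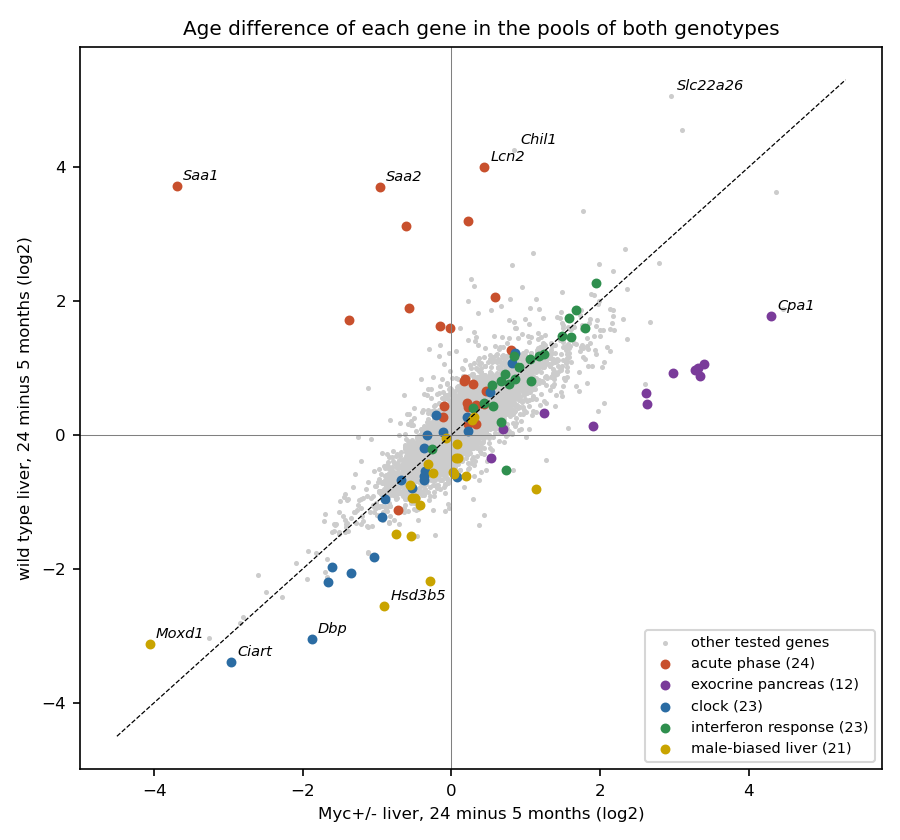
Each point is 1 tested gene, with its 24-minus-5-month difference (log2) in Myc+/- liver on the x axis and in wild type liver on the y axis, and the dashed line marks equal differences. Colours mark 5 gene lists: interferon genes lie near the line, clock genes lie mostly at the lower left with Dbp below the line, several acute-phase genes (Saa1 at 3.71 in wild type and -3.69 in Myc+/-) lie far above it and pancreas genes such as Cpa1 far below it.

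Among the 12 genes with the largest positive differences were transporters, acute-phase proteins and products of leukocytes. Slc22a26, a member of the organic anion transporter family, read 6.29, 6.25 and 6.12 on the 5-month arrays and 11.11, 11.50 and 11.22 on the 24-month arrays. This was the largest positive difference of any named gene, 5.06 ± 0.18, and the arrays of the 2 pools were far from overlapping. Dmbt1, a secreted scavenger receptor of epithelia, read 5.54, 5.56 and 5.54 on the 5-month arrays and 9.98, 10.27 and 10.04 on the 24-month arrays. Its difference was 4.55 ± 0.12 with no overlap between the ages. The deposited values carry no detection call, and the 5-month readings of Dmbt1 lay under the lower quartile of those arrays (5.63 to 5.66). It was therefore not shown to be above background at 5 months, it passed the filter through the pools where it is high, and neither its fold nor its rank is exact. Chil1, a chitinase-like protein made in inflammation, read 6.32, 6.57 and 6.78 on the 5-month arrays and 10.71, 10.78 and 10.94 on the 24-month arrays, and its difference was 4.25 ± 0.12.

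Atp6v0d2, a subunit of a proton pump of lysosomes and osteoclasts, rose by 3.34 ± 0.11, Ngp, a granule protein of neutrophil precursors, by 3.62 ± 0.13, Cxcl13, a chemokine that attracts B cells, by 2.77 ± 0.09, and Igha, the heavy chain of IgA, by 2.71 ± 0.11. The other 5 of the 12 were Lcn2, Saa1, Saa2, Orm3 and Orm2, described with the acute-phase genes. For none of the 24 genes at the ends did the arrays of the ages overlap, and the largest adjusted p among them was 1.06e-12 (array-level limma). Both follow from the choice of these genes by their large differences. Of all 13073 tested probe sets 7882 had an adjusted p under 0.05 in that fit, with no minimum fold. At the pool level 20 of the 24 passed at adjusted p under 0.05, where 30.5% of all probe sets were higher and 17.3% lower. The other 4 were Saa1 (0.01, adjusted p = 0.995), Saa2 (1.37, 0.341), Orm3 (1.70, 0.0504) and Orm2 (1.25, 0.193). The pool-level fit includes the wild type pools by which the 24 genes were chosen, so passing it is no separate support.

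The 12 largest negative differences held clock genes, male-biased genes, 5 small nucleolar RNAs and a hepcidin. Ciart, a repressor of the circadian clock, read 9.98, 10.04 and 10.21 on the 5-month arrays and 6.62, 6.84 and 6.59 on the 24-month arrays. It had the largest fall, -3.40 ± 0.14. Moxd1, a monooxygenase-like protein, read 9.80, 9.98 and 9.85 on the 5-month arrays and 6.79, 6.61 and 6.86 on the 24-month arrays and fell by 3.12. Its fall was larger still in Myc+/- liver (-4.06). Hamp2, a close relative of the iron hormone hepcidin, read 11.27, 11.35 and 11.17 on the 5-month arrays and 8.54, 9.50 and 9.31 on the 24-month arrays (difference -2.15 ± 0.18).

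**Figure D2:**
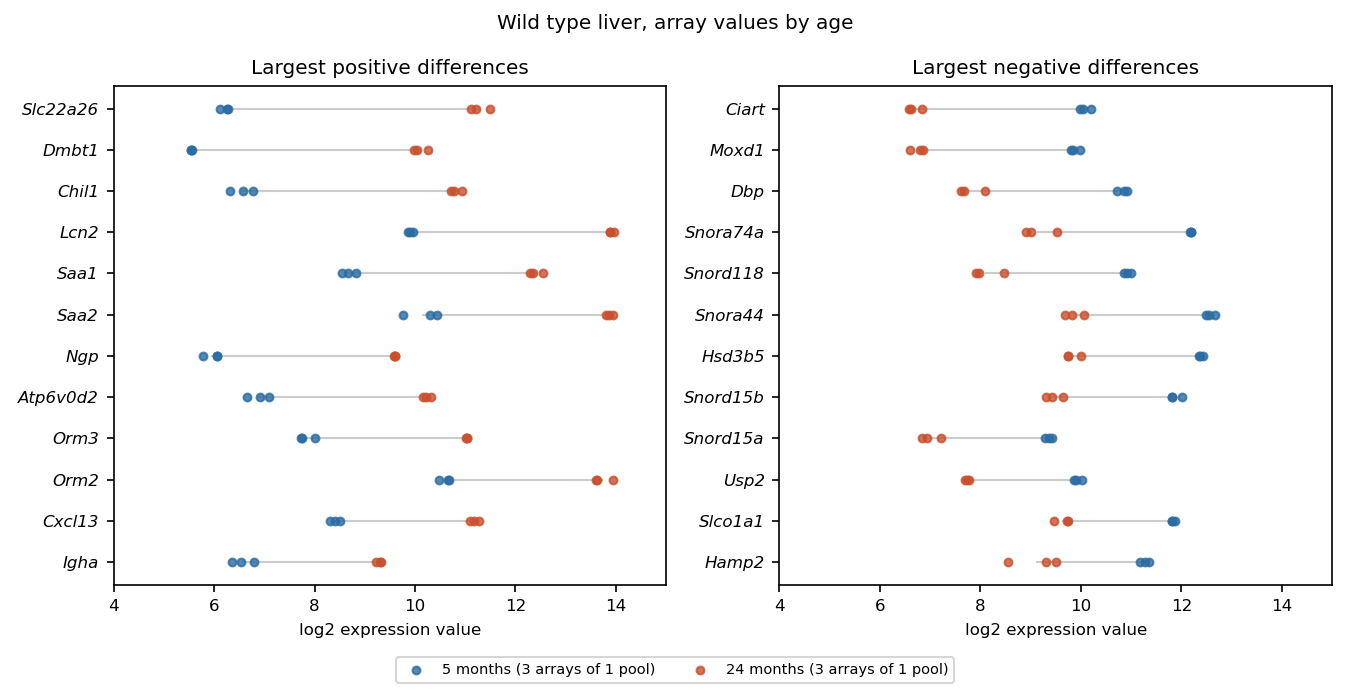
The log2 expression value of each of the 3 arrays per pool is shown for the 12 genes with the largest positive (left) and the 12 with the largest negative difference (right), with 5 months in blue and 24 months in red. The grey line joins the pool means. The ages do not overlap in any of the 24 genes, which were chosen by their large differences.

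In the other tissues of the same wild type mice these genes behaved differently. Slc22a26 differed by 0.27 in muscle and 0.06 in adipose, and Dmbt1 by -0.22 and -0.05. Chil1 differed by 0.16 and 1.54, Lcn2 by 0.14 and 1.5, and Saa1 by 0.00 and 0.68. Ciart was lower in both, by -1.19 and -2.13, as was Dbp, by -0.97 and -1.46. Moxd1 differed by -0.08 and -0.22. Over the probe sets tested in liver, 10.0% were called in muscle and 7.08% in adipose.

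Acute-phase genes were higher in the old wild type pool, and many of them differed in this from Myc+/- liver. Of 24 tested members, 15 were called higher, 1 lower and 8 neither, with a median of 0.82, against 10.0% higher and a median of 0.07 over all genes. In Myc+/- liver 2 were higher and 5 lower (median 0.19), against 8.73% and 2.86% of all genes there. The difference between the genotypes was itself called for 12 members, each more positive in wild type, where 1.27% of all genes were.

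Saa1 and Saa2 encode serum amyloid A, which the liver releases into plasma in inflammation. Saa1 read 8.56, 8.66 and 8.83 on the 5-month arrays and 12.30, 12.55 and 12.34 on the 24-month arrays, and Saa2 read 10.45, 9.76 and 10.30 on the 5-month arrays and 13.95, 13.86 and 13.80 on the 24-month arrays. Their differences were 3.71 ± 0.15 and 3.70 ± 0.19. In Myc+/- liver Saa1 moved the other way, by -3.69, and Saa2 differed by -0.96. The young Myc+/- pool already read 12.14 for Saa1 and 13.09 for Saa2, above the young wild type pool, and the old Myc+/- pool read 8.45 and 12.13. The genes are near-identical neighbours, so their signals may be mixed.

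Lcn2, a protein that binds bacterial iron carriers, read 9.87, 9.89 and 9.97 on the 5-month arrays and 13.96, 13.89 and 13.88 on the 24-month arrays. It rose by 4.0 ± 0.07 in wild type against 0.44 in Myc+/- liver (difference 3.56, array-level limma adjusted p = 5.36e-26). Its Myc+/- pools read 12.46 at 5 months and 12.90 at 24 months, so the young Myc+/- level was above the young wild type level. Orm2 and Orm3, forms of the plasma protein orosomucoid, rose by 3.11 ± 0.13 and 3.19 ± 0.12, against -0.61 and 0.22 in Myc+/- liver, where the young pool read 13.23 and 9.20 against 10.61 and 7.84 in young wild type liver. Saa3, a form also made by macrophages, rose by 1.71 ± 0.12 against -1.38. Apcs (serum amyloid P) and Mt1 (metallothionein 1, a metal-binding protein) were chosen after their values were seen. They rose by 2.05 ± 0.14 and 1.90 ± 0.07, against 0.59 and -0.58 in Myc+/- liver. The only member called lower was Hamp, the hepcidin gene, which read 13.82, 14.06 and 13.67 on the 5-month arrays and 13.11, 12.38 and 12.69 on the 24-month arrays. At the pool level its age difference did not pass (limma, -0.92, adjusted p = 0.366). Socs3, a feedback inhibitor of cytokine signalling, was called higher in wild type (0.61 ± 0.10, against -0.37 in Myc+/- liver). That call was lost with arrays centred, with quantile normalization repeated, without 5-month array 2 or 3, and with the mean over its probe sets.

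Marker genes of leukocytes were higher in the old pool. All 9 neutrophil and myeloid markers that passed the filter (of 14 on the array) were called higher, where 10.0% of all genes were. Their median was 1.32 in wild type and 1.48 in Myc+/- liver. The filter took the mean over liver arrays of both ages, so a marker dim at 5 months could pass through the old pools. The count is therefore partly set by the filter. The tested markers had a median level of 6.91 at 5 months, and the median difference of all 14 was 1.31. The summed linear signal of the list was 2069 to 2092 on the 5-month arrays and 18110 to 19070 on the 24-month arrays, most of it Lcn2, which is also an acute-phase gene. Without Lcn2 it rose from 1092 to 1136 at 5 months to 3078 to 3335 at 24 months. S100a8 and S100a9, the calprotectin subunits, rose by 1.73 ± 0.10 and 1.32 ± 0.12, and Mpo, the myeloperoxidase of granules, by 1.67 ± 0.13.

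Of 19 macrophage and Kupffer cell markers 14 were higher and 0 lower (median 0.82, Myc+/- 1.03), against 10.0% and 3.86% of all genes. Their summed signal was 15460 to 16390 on the 5-month arrays and 31420 to 32930 on the 24-month arrays. Cd53, a tetraspanin of leukocytes, read 8.84, 8.84 and 9.06 on the 5-month arrays and 10.43, 10.61 and 10.73 on the 24-month arrays. Lyz2, the lysozyme of macrophages, rose by 1.32 ± 0.06 and Itgam, the integrin CD11b, by 1.30 ± 0.08. Ctsc, a lysosomal protease that matures granule enzymes, led the lysosomal genes (5 higher and 1 lower of 24, 3 and 2 with arrays centred) with 1.35 ± 0.06, and the member called lower was Map1lc3a, an autophagosome protein (-1.07 ± 0.06).

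Some markers of lymphocytes were higher too, where 10.0% of all genes were higher and 3.86% lower. Of 11 T and NK cell markers 5 were higher (3 with arrays centred), among them Cd3g, a chain of the T cell receptor complex (1.74 ± 0.13), and Nkg7, a granule protein of cytotoxic cells (0.94 ± 0.11). With 11 of 23 matched markers past the filter, most of the rest were dim. Of 5 B cell markers past the filter (of 10 on the array) 3 were higher (2 with arrays centred), led by Ly86, a partner of a Toll-like receptor relative (1.63 ± 0.09). Cd79b, a chain of the B cell receptor, was called at 0.60 ± 0.09, which fell short of 1.5-fold with either other scaling. The B cell median was 0.60 over the tested markers and 0.40 over all 10. Of 8 plasma cell genes past the filter (of 10 on the array) 5 were higher and 1 lower (4 and 1 with arrays centred). Their median was 0.74, against 0.43 over all 10. Igha read 6.55, 6.36 and 6.80 on the 5-month arrays and 9.21, 9.33 and 9.30 on the 24-month arrays and rose more than in Myc+/- liver (1.09). Jchain, which joins IgA and IgM into polymers, rose by 1.66 ± 0.13, and Ighm, the heavy chain of IgM, by 0.91 ± 0.11.

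MHC class II genes, which present antigen, rose less in wild type than in Myc+/- liver. Of 7 members 2 were called higher, Cd74 (0.78 ± 0.05) and H2-Ab1 (0.64 ± 0.07, under 1.5-fold with either other scaling or without 24-month array 3), with a median of 0.35 against 1.24 in Myc+/- liver. The difference between genotypes was called for 5 of the 7, where 1.29% of all genes were more negative in wild type. Of 9 class I and immunoproteasome genes 1 was called, H2-Q4 at 0.65 ± 0.08, and 0 with either other scaling.

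Chemokines and cytokines were higher for 9 of 17 tested members (7 with arrays centred), and 0 were lower, where 10.0% of all genes were higher and 3.86% lower. The 17 were those past the filter, of 26 on the array. A member dim at 5 months could pass through the old pools, so the count is partly set by the filter. The median was 0.70 over the 17 and 0.27 over all 26. Cxcl13 read 8.50, 8.42 and 8.31 on the 5-month arrays and 11.18, 11.27 and 11.10 on the 24-month arrays. It rose in all 3 wild type tissues, by 2.26 in muscle and 3.59 in adipose. Ccl5, made by T cells, rose by 1.96 ± 0.08, Ccl6 by 1.65 ± 0.06 and Ccl3 by 1.31 ± 0.10, the last less than in Myc+/- liver (2.09). Of 20 complement genes 5 were higher and 0 lower. They were Cfp (properdin, 1.36 ± 0.06), Mbl1 (a mannose-binding lectin, 1.17 ± 0.15) and the 3 chains of C1q, which macrophages make, with C1qb at 0.77 ± 0.08.

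Interferon-response genes rose in the livers of both genotypes. In wild type 17 of 23 tested members were called higher and 0 lower (1 lower with arrays centred), against 10.0% and 3.86% of all genes. In Myc+/- liver 18 were higher and 0 lower, against 8.73% and 2.86% of all genes there. The medians were 0.90 in wild type and 0.85 in Myc+/- liver. Interferon drives such genes through a transcription factor complex that binds a DNA element named ISRE. Because members of this group moved together, their promoter windows (300 bases, most of them upstream of the start, RefSeq, GRCm38.p6) were searched on both strands for GAAA, any 2 letters and GAAA. The letters occurred in 8 of the 12 genes called higher that had a window, in 3 of the 6 not called, and in 3.99% of all 27025 genes. A match is a description and was not tested as a binding site. The Ifit1 window (chr19:34640639-34640938, plus strand) is shown because it holds 2 matches, in capitals, both read on the other strand.
Ifit1: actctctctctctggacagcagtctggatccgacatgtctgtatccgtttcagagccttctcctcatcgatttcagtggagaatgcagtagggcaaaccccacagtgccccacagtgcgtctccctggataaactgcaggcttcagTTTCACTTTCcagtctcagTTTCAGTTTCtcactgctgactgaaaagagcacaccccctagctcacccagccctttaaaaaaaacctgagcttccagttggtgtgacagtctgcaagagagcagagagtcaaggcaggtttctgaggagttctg

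Ifit1, which binds foreign RNA, read 8.29, 8.19 and 8.49 on the 5-month arrays and 9.89, 9.80 and 9.73 on the 24-month arrays, a rise of 1.48 ± 0.09 against 1.48 in Myc+/- liver. Irf7, the transcription factor that amplifies interferon production, read 9.09, 9.15 and 9.21 on the 5-month arrays and 11.30, 11.38 and 11.59 on the 24-month arrays and rose most in the group (2.27 ± 0.09). No match was found in its window, which says only that these letters are not there. Rsad2 (viperin) rose by 1.86 ± 0.12, Zbp1, a sensor of nucleic acids, by 1.75 ± 0.11 and Oasl2, a relative of the oligoadenylate synthetases, by 1.59 ± 0.06. At the pool level Irf7 differed by 2.10 and Ifit1 by 1.48 (limma, adjusted p = 0.000175 and 0.000137), where 30.5% of all probe sets were higher and 17.3% lower. That fit includes the wild type pools by which the 2 genes were named, so passing it is no separate support. Irf7 and Ifit1 were also higher in wild type muscle (1.81 and 0.83) and adipose (1.05 and 1.35).

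Clock genes made up the group with the lowest median among the pathway lists, -0.63 in wild type and -0.37 in Myc+/- liver. Of 23 tested members 13 were called lower, against 3.86% of all genes, and 3 higher (2 with arrays centred). The clock is a loop in which the activators Arntl and Clock switch on their own repressors, the Per and Cry genes and others, and output factors such as Dbp. The members called higher were the activators Arntl (1.22 ± 0.10) and Clock (0.63 ± 0.05, under 1.5-fold with either other scaling), chosen after their values were seen, and Fmo2, a flavin monooxygenase (1.08 ± 0.07). Those called lower were 6 repressors, 5 output genes and 2 nuclear receptors of a second loop that represses Arntl, Nr1d1 (-0.63 ± 0.04) and Nr1d2 (-0.67 ± 0.06), both named after their values were seen. The difference between genotypes was called for 4 members, each more negative in wild type, where 1.29% of all genes were. They were Dbp, Bhlhe41, Nr1d1 (0.08 in Myc+/- liver) and Wee1, a cell cycle kinase under clock control (-1.82 ± 0.09, Myc+/- -1.04), the last also named after its values were seen.

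Activators bind the E-box CACGTG, and Dbp and its relatives bind the D-box TTATGTAA. The E-box occurred in the RefSeq windows of 3 of the 10 clock genes called lower that had one, in 3 of the 7 not called and in 8.09% of all genes, and the D-box in 1 of 10, 0 of 7 and 1.11%. The windows of Ciart (chr3:95882179-95882478, minus strand), with 3 E-boxes, and Per3 (chr4:151044616-151044915, minus strand), with 2 D-boxes, are shown with the matches in capitals, as the members with the most matches.
Ciart: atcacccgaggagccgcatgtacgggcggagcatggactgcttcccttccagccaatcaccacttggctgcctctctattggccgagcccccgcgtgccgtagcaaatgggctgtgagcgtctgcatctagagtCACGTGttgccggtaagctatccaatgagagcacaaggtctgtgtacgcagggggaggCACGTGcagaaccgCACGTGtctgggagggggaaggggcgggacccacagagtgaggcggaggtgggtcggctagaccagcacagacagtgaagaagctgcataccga
Per3: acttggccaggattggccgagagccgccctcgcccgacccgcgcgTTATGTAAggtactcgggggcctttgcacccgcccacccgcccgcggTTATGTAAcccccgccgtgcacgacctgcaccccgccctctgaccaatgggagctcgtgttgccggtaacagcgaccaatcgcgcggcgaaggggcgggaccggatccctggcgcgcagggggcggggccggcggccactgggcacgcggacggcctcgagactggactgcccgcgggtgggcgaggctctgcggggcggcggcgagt

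Dbp, an output transcription factor, read 10.73, 10.92 and 10.87 on the 5-month arrays and 7.67, 7.62 and 8.08 on the 24-month arrays. It fell by 3.05 in wild type, against -1.88 in Myc+/- liver, and this difference between genotypes was called (array-level limma, adjusted p = 4.91e-09). Per3, a repressor, read 8.75, 8.86 and 9.00 on the 5-month arrays and 6.99, 6.98 and 6.74 on the 24-month arrays (difference -1.97 ± 0.09). Usp2, a deubiquitinase under clock control, read 9.87, 10.02 and 9.91 on the 5-month arrays and 7.73, 7.70 and 7.77 on the 24-month arrays (difference -2.20 ± 0.06). In each of the 3, which were named for large differences, the old arrays lay well below the young ones. Bhlhe41, a repressor of the activators, fell by 2.06 against -1.35 in Myc+/- liver. Arntl, whose daily cycle runs opposite to that of Dbp, read 8.09, 7.45 and 7.86 on the 5-month arrays and 9.02, 9.00 and 9.03 on the 24-month arrays.

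The clock median was -0.32 in muscle and -0.21 in adipose of the same wild type mice. Since the labels give no hour of sacrifice, a shift of hour between the pools and a change of the clock with age cannot be told apart.

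**Figure D3:**
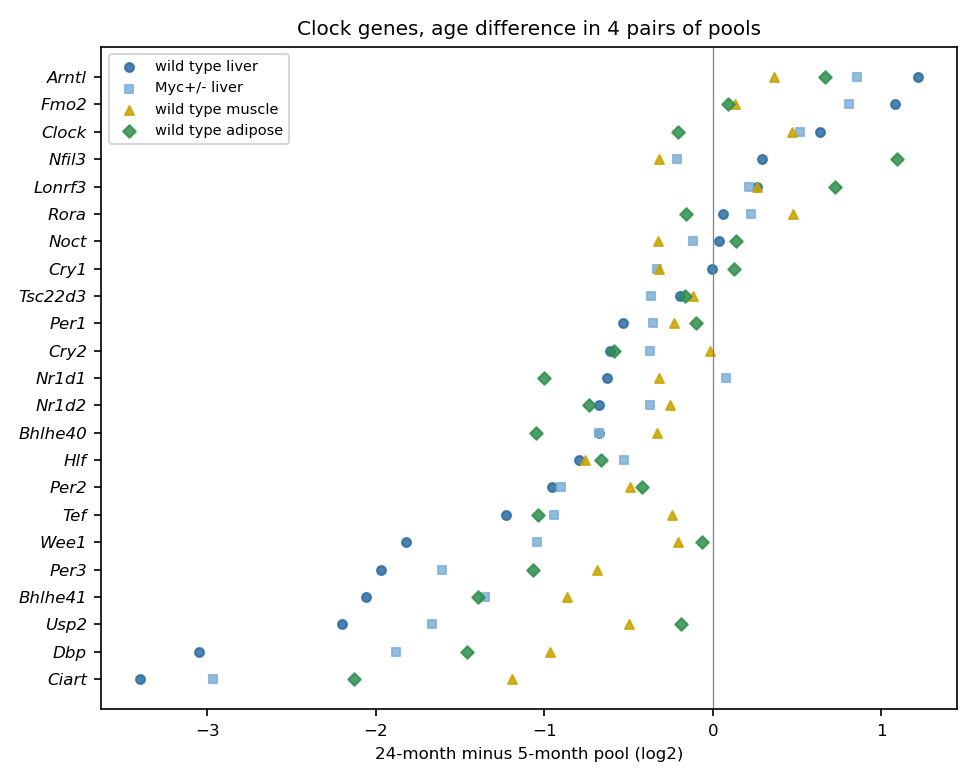
The 24-minus-5-month difference (log2, x axis) of the 23 tested clock genes is shown in wild type liver, Myc+/- liver, and muscle and adipose of the same wild type mice. Ciart and Dbp are below 0 in all 4 pairs of pools and lowest in wild type liver, while Arntl is above 0 in all 4.

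Many male-biased liver genes were lower in the old wild type pool. Of 21 tested members 0 were called higher and 12 lower (median -0.61), where 3.86% of all genes were lower. In Myc+/- liver 1 was higher and 3 lower (median -0.25). The 3 became 7 without the Myc+/- array that stood apart, 7 with arrays centred and 5 with quantile normalization repeated. The difference between genotypes was called for 8 members more negative in wild type and 1 more positive, and for 4 and 1 without the Myc+/- array that stood apart. The growth hormone pulses of males keep many of these genes on.

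Hsd3b5, a steroid-reducing enzyme of male liver, read 12.38, 12.35 and 12.43 on the 5-month arrays and 9.74, 9.74 and 10.01 on the 24-month arrays. It fell by 2.55 in wild type, against -0.91 in Myc+/- liver. Slco1a1, an organic anion uptake transporter, read 11.87, 11.81 and 11.82 on the 5-month arrays and 9.74, 9.73 and 9.48 on the 24-month arrays. It fell by 2.19, against -0.29 in Myc+/- liver. Selenbp2, a selenium-binding protein, differed by -1.5 ± 0.08 and Cyp2d9, a steroid hydroxylase, by -1.47 ± 0.13, against -0.54 and -0.75. For Cyp2d9 the difference between genotypes was lost without the array that stood apart (-0.55, array-level limma adjusted p = 0.055).

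Of the 18 female-biased genes on the array 9 passed the filter, and of these 4 were higher and 0 lower (3 higher with either other scaling). In Myc+/- liver 4 of the 9 were also higher and 0 lower. The medians were 0.54 in wild type and 0.17 in Myc+/- liver. Fmo2, counted above with the clock genes, is also in this list and among the 4 of wild type. Cyp2b9, a female-biased cytochrome P450, read 11.18, 10.33 and 10.77 on the 5-month arrays and 13.27, 13.32 and 13.30 on the 24-month arrays. It rose by 2.54 ± 0.15 against 0.81 in Myc+/- liver. Abcd2, a transporter of peroxisomes, rose by 1.45 ± 0.07, and Cyp3a44 was called at 0.68 ± 0.21, though not with either other scaling or without either of 2 single arrays (5-month array 3, 24-month array 1). Among the 25 cytochrome P450 genes of families 1 to 3, 4 were higher and 1 lower (16.0% and 4.0%). Over all genes 10.0% were higher and 3.86% lower, so the list stood not far from that. Cyp2a22 had a mean of 5.51 in the 5-month pool, under the lower quartile of those arrays and not shown to be above background, and 7.85 in the 24-month pool. The Myc+/- pools read 7.61 and 7.88, and no exact fold is given for wild type. Cyp2c38 and Cyp2c39 rose by 1.46 ± 0.17 and 1.40 ± 0.17, and Cyp2d10 fell by 1.10. These families hold close copies, whose probe sets may share signal.

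In the insulin and IGF list 4 of 20 members were higher and 0 lower (2 and 3 with arrays centred), against 10.0% and 3.86% of all genes. Igfbp1, which binds IGF in plasma and is high in fasting, read 9.30, 8.67 and 8.66 on the 5-month arrays and 10.69, 11.04 and 10.98 on the 24-month arrays (difference 2.02 ± 0.15, Myc+/- 0.78). Socs2, a feedback inhibitor of growth hormone signalling, read 9.49, 9.50 and 9.55 on the 5-month arrays and 11.33, 11.34 and 11.38 on the 24-month arrays (difference 1.84 ± 0.07, Myc+/- 1.47). The arrays of the ages did not overlap for either gene, which follows from naming them for large differences. In the pool-level limma fit the age difference of Socs2 was 1.66 (adjusted p = 0.00016), where 30.5% of all probe sets were higher and 17.3% lower. That fit includes the wild type pools, so passing it is no separate support.

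Some enzymes of cholesterol synthesis were higher in the old wild type pool. Of 22 tested members 5 were called higher and 0 lower in wild type (median 0.35), against 0 and 1 in Myc+/- liver (median -0.06), and the difference between genotypes was called for 5. With arrays centred, wild type had 4 higher and 1 lower, and Myc+/- liver 3 lower. Over all genes as deposited 10.0% were higher and 3.86% lower in wild type. The difference between genotypes was more positive in wild type for 1.27% of all genes. Sqle, which makes squalene epoxide, read 10.38, 10.53 and 10.52 on the 5-month arrays and 11.52, 11.52 and 11.39 on the 24-month arrays. It rose by 1.00 ± 0.09 against 0.14. Idi1, Lss, Mvk and Hmgcs1, enzymes of the same pathway, rose by 0.86 ± 0.11, 0.83 ± 0.08, 0.75 ± 0.06 and 0.62 ± 0.07, the last under 1.5-fold with arrays centred.

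Some genes of fat synthesis were lower in both genotypes. Of 26 tested genes of fatty acid and triglyceride synthesis 1 was higher and 4 lower in wild type, and 0 and 10 in Myc+/- liver (medians -0.22 and -0.38). In wild type 21 were not called. With arrays centred the counts lower were 7 and 12. Over all genes as deposited 10.0% were higher and 3.86% lower in wild type, and 8.73% and 2.86% in Myc+/- liver. The difference between genotypes was called for 5 members, each more positive in wild type, where 1.27% of all genes were. Thrsp, a thyroid hormone-responsive stimulator of lipid synthesis, read 12.38, 12.50 and 12.49 on the 5-month arrays and 10.40, 10.35 and 10.36 on the 24-month arrays. It fell by 2.09, against -2.61 in Myc+/- liver. Srebf1, the transcription factor that switches on fat synthesis, fell by 0.97 and Me1, malic enzyme, by 0.84. The member that rose was Scd2, a desaturase (1.12 ± 0.07).

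In fatty acid oxidation 2 of 23 genes were higher and 3 lower (1 and 4 with arrays centred), against 10.0% and 3.86% of all genes. Acaa1b, a thiolase of peroxisomes, fell by 1.76, Acot1, a thioesterase, by 1.19 (Myc+/- 0.44), and Pdk4, which holds back glucose oxidation, rose by 0.97 ± 0.07. Among 19 genes of lipid droplets and uptake 4 were higher and 2 lower (2 and 4 with arrays centred). Lpl, lipoprotein lipase, which is low in adult hepatocytes, read 8.58, 8.43 and 8.74 on the 5-month arrays and 10.32, 10.39 and 10.42 on the 24-month arrays. It rose by 1.79 ± 0.07, Cd36, a fatty acid transporter, by 0.86 ± 0.06, and G0s2, an inhibitor of lipolysis, fell by 1.08.

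Most genes of the other hepatocyte functions were not called, as was so over all genes, of which 10.0% were called higher and 3.86% lower. In bile acid synthesis and transport 21 of 24 were not, and besides Slco1a1 the calls were Cyp8b1, which sets the cholic acid share (-1.27 ± 0.12, Myc+/- -0.46), and the transporter Slco1a4 (0.78 ± 0.12). In gluconeogenesis and glycolysis 13 of 16 were not, and the calls were Gpt, alanine aminotransferase (-1.20 ± 0.07), Slc2a2, the glucose transporter GLUT2 (-1.11 ± 0.11), and Ldha, lactate dehydrogenase A (0.85 ± 0.06). In the urea cycle and amino acid list 16 of 18 were not. There Bhmt, which methylates homocysteine, was called at 0.67 ± 0.13, though not with arrays centred or with the mean over its probe sets, and Otc, an enzyme of the urea cycle, at -0.62 ± 0.10, though not without 24-month array 1.

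Of 18 tested iron and heme genes, 3 were higher and 3 lower (2 and 6 with arrays centred), and the 3 higher are near the 10.0% of all genes. Hamp2 and Hamp, both of the hepcidin family, were lower, and Tfrc, the transferrin receptor for iron uptake, read 7.57, 7.50 and 7.72 on the 5-month arrays and 9.13, 9.19 and 9.26 on the 24-month arrays (difference 1.60 ± 0.09, Myc+/- 0.87).

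**Figure D4:**
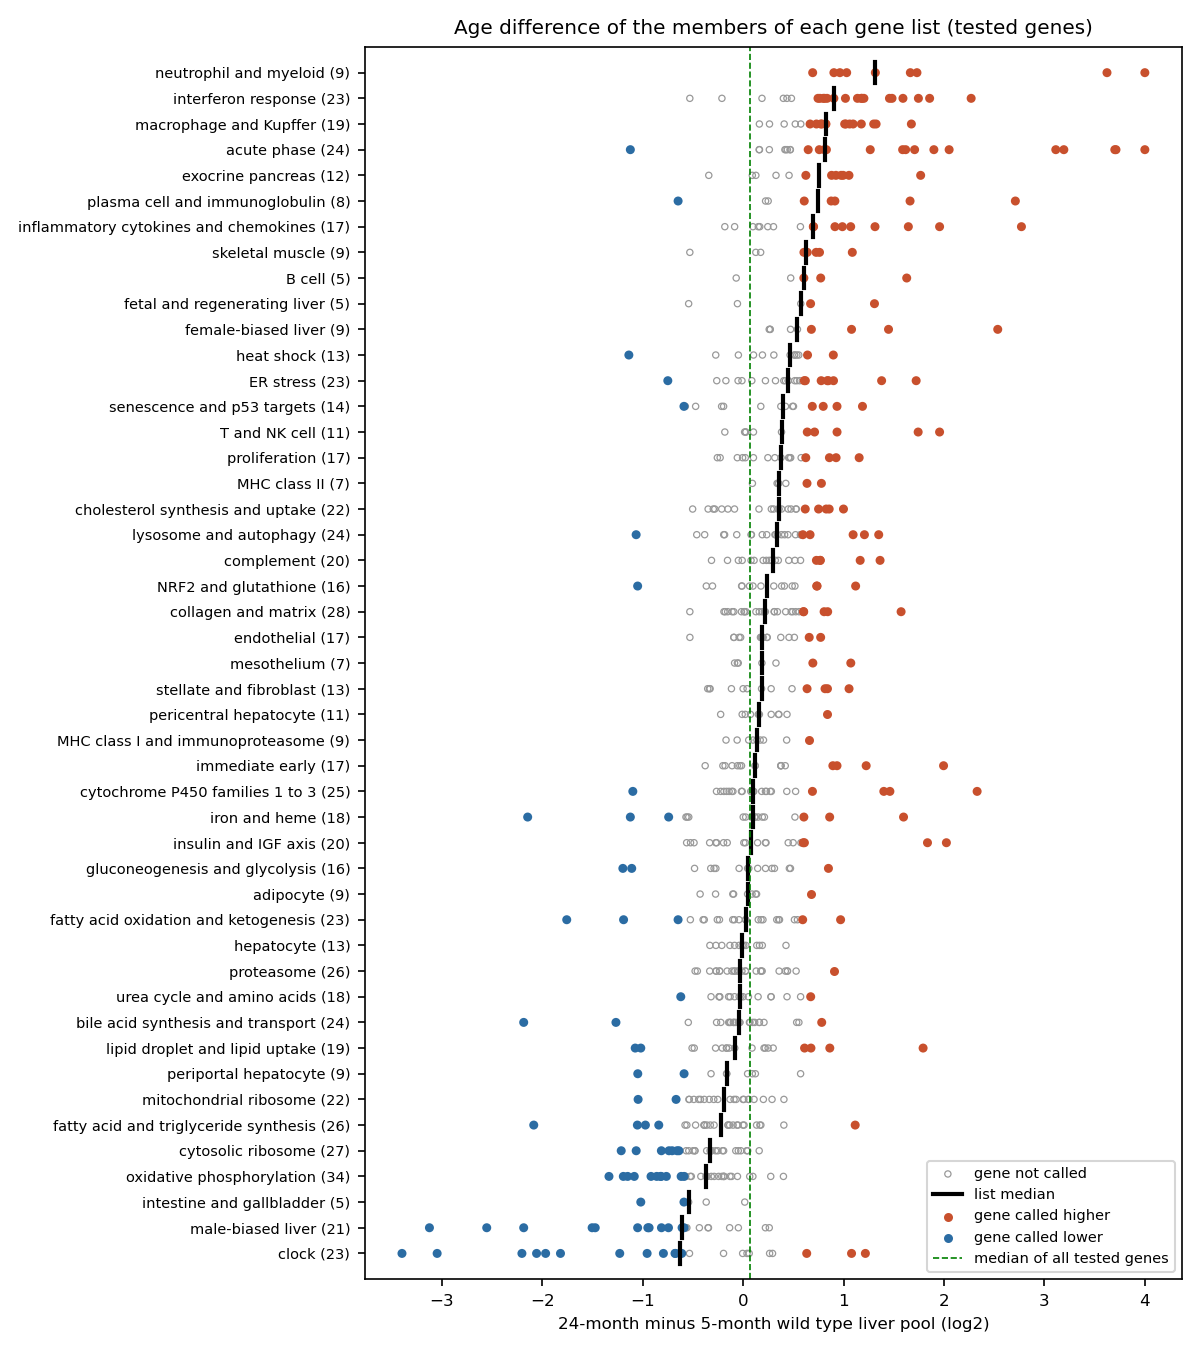
Each point is 1 tested gene of a list, with its 24-minus-5-month difference in wild type liver (log2) on the x axis. Filled points are called, black bars are list medians, the green dashed line is the median of all tested genes, and brackets give the number of tested members. Clock, male-biased and oxidative phosphorylation genes lie to the left, and leukocyte, interferon and acute-phase genes to the right.

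Small nucleolar RNAs (snoRNAs), which guide the modification and processing of ribosomal RNA, had the lowest median among the gene types. The grouping, by RefSeq gene type, was chosen after values were seen. Of 42 tested snoRNA genes 0 were called higher and 31 lower (median -0.88), against 10.0% and 3.86% of all genes. In Myc+/- liver 0 were higher and 32 lower (median -0.97), against 8.73% and 2.86% of all genes there. Snora74a read 12.20, 12.17 and 12.19 on the 5-month arrays and 9.53, 9.01 and 8.91 on the 24-month arrays. Snord118, the U8 RNA needed for processing of large-subunit ribosomal RNA, read 10.92, 10.87 and 10.99 on the 5-month arrays and 7.97, 7.91 and 8.48 on the 24-month arrays on 2 probe sets with identical values. Their differences were -3.04 ± 0.16 and -2.80 ± 0.18, and the old arrays lay far below the young ones. Snora44, Snord15b and Snord15a differed by -2.72 ± 0.12, -2.43 ± 0.12 and -2.35 ± 0.18.

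The other tissues of the same wild type mice did not share 1 direction. In muscle the snoRNA median was -0.61 with 22 called lower, and in adipose it was 0.50 with 18 called higher and 0 lower. Many snoRNAs lie in introns of other genes, whose unspliced RNA would be read by the same probes. They are short RNAs, and the labels name 2 homogenization methods and 2 kinds of labelling kit without saying which sample had which, so their part in this result was not tested.

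**Figure D5:**
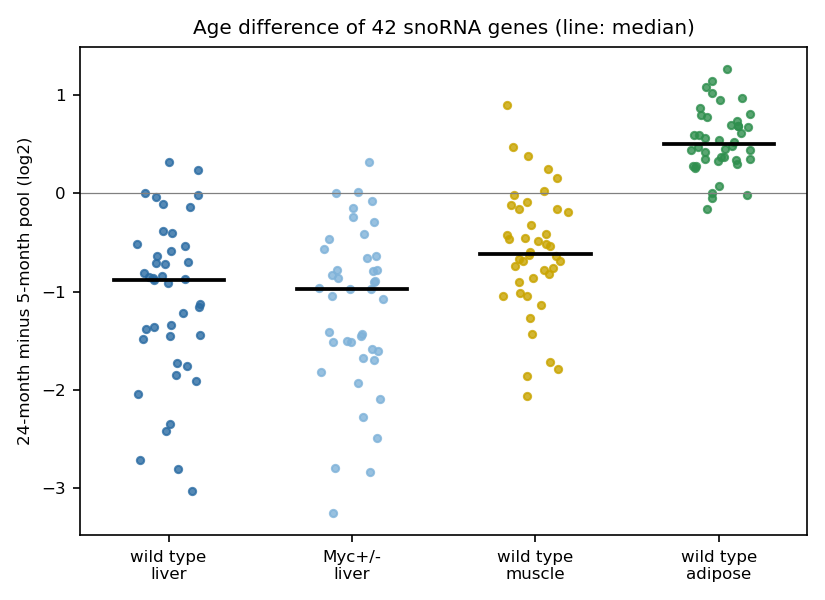
Each point is 1 of 42 tested snoRNA genes, with its 24-minus-5-month difference (log2, y axis) in 4 pairs of pools, and the bar is the median. The medians are -0.88 in wild type liver, -0.97 in Myc+/- liver, -0.61 in muscle and 0.50 in adipose of the same wild type mice.

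Some subunits of oxidative phosphorylation, the mitochondrial route to ATP, were lower. Of 34 tested, 0 were higher, 11 lower (15 lower with arrays centred) and 23 not called, where 3.86% of all genes were lower, with a median of -0.37 against -0.28 in Myc+/- liver. In complex I 6 of 15 were lower and in complexes II to V 5 of 19. Ndufa1, a subunit of complex I, read 9.75, 9.57 and 9.66 on the 5-month arrays and 8.03, 8.47 and 8.48 on the 24-month arrays (difference -1.34 ± 0.09). Ndufb8 and Ndufa5, further subunits of complex I, fell by 1.19 and 1.15, and in wild type muscle these 3 differed by -1.26, -1.13 and -1.16.

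Cytosolic ribosomal proteins had 0 of 27 higher and 7 lower (12 lower with arrays centred), with medians of -0.33 and -0.33 in the 2 genotypes. Over all genes 3.86% were lower in wild type (7.34% with arrays centred), the share for the mitochondrial ribosome count below as well. Rps19, a protein of the small subunit, read 10.82, 10.68 and 10.75 on the 5-month arrays and 9.61, 9.52 and 9.48 on the 24-month arrays (difference -1.21 ± 0.12), and Rpl13, of the large subunit, fell by 1.07. In mitochondrial ribosomes 2 of 22 were lower (5 with arrays centred, 4 with quantile normalization repeated), with Mrps12 at -1.05 ± 0.10. The snoRNA median of -0.88 moved with these groups, and its part in them was not tested. Of 26 proteasome genes 1 was called, Psmb4 (0.91 ± 0.10), and with arrays centred 2 others were lower.

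Genes of protein folding in the endoplasmic reticulum were higher for 8 and lower for 1 of 23 tested members (6 and 1 with arrays centred). Creld2, a stress-induced folding protein, read 9.91, 9.78 and 9.84 on the 5-month arrays and 11.52, 11.61 and 11.57 on the 24-month arrays (difference 1.72 ± 0.06, Myc+/- 0.99). Sdf2l1, a partner of the chaperone BiP, rose by 1.38 ± 0.06 and Pdia4, a disulfide isomerase, by 0.85 ± 0.07. Of 13 heat shock genes 2 were higher and 1 lower, near the 10.0% and 3.86% of all genes. Hsp90aa1, an inducible chaperone, was called at 0.64 ± 0.05, though not with arrays centred, and Hspb1, a small heat shock protein, fell by 1.14 against -0.09 in Myc+/- liver. Of 16 genes of the NRF2 antioxidant response 3 were higher and 1 lower, with Nqo1, a quinone reductase, at 1.12 ± 0.10 and Gstp1, a glutathione transferase also listed as male-biased, at -1.05 ± 0.10.

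Immediate early genes, which respond to stimuli within minutes, were higher for 4 of 17, where 10.0% of all genes were higher. Egr1, one of their transcription factors, read 8.57, 8.59 and 8.68 on the 5-month arrays and 10.56, 10.57 and 10.68 on the 24-month arrays, a difference of 2.00 ± 0.06 and 1.98 in Myc+/- liver. Jun, a part of AP-1, rose by 1.23 ± 0.07. In proliferation 4 of 17 tested genes were higher, of 23 on the array. These included Mki67, a marker of cycling cells (1.16 ± 0.11, Myc+/- 1.77), and the cyclins Ccna2 (0.93 ± 0.11) and Ccnd1 (0.86 ± 0.06). In senescence and p53 targets 4 of 14 were higher and 1 lower (3 and 3 with arrays centred), with the stress genes Gadd45g at 1.19 ± 0.07 and Ccng1 at 0.80 ± 0.06. The member called lower, Gadd45a (-0.59 ± 0.11), was not called without 5-month array 2 or 24-month array 1.

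Fibrillar and basement membrane collagens had 0 calls among 12 genes (median 0.08), while other matrix genes were higher for 5 of 16. Over both sets, 3 were higher and 1 lower with arrays centred. Thbs1, thrombospondin 1, read 6.90, 7.11 and 6.95 on the 5-month arrays and 8.62, 8.58 and 8.47 on the 24-month arrays (difference 1.57 ± 0.05), and Lum, a collagen-binding proteoglycan, rose by 0.84 ± 0.10. Of 13 stellate cell and fibroblast markers 4 were higher, led by Acta2, smooth muscle actin (1.05 ± 0.06), while their summed signal was 9610 to 10340 at 5 months and 9361 to 10200 at 24 months. Of 17 endothelial markers 2 were called, both higher, near the 10.0% of all genes. Of 4 bile duct markers past the filter (of 7 on the array) 2 were higher, Muc1, a mucin (1.48 ± 0.12), and Krt19, a keratin (0.69 ± 0.12), the latter not with arrays centred. The bile duct median was 0.63 over the 4 and 0.08 over all 7. Cdh1, the adhesion protein E-cadherin of periportal hepatocytes, fell by 1.05.

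Markers of other tissues also moved. Of 12 exocrine pancreas genes past the filter (of 19 on the array) 7 were higher and 0 lower, against 10.0% and 3.86% of all genes. The summed signal of the list was 1899 to 2041 on the 5-month arrays and 3165 to 3284 on the 24-month arrays. On the old Myc+/- arrays it was 11060 to 12890. The filter took in those arrays, so a member could pass through them, and counts over the tested members are partly set by it. Cpa1, a digestive carboxypeptidase, read 6.89, 6.74 and 6.68 on the 5-month arrays and 8.52, 8.59 and 8.50 on the 24-month arrays (difference 1.77 ± 0.11). In Myc+/- liver the same genes rose more, with a median of 2.80 against 0.75. All 12 tested members differed between genotypes, where 1.29% of all genes were more negative in wild type. Besides Cpa1 (-2.53) the largest such differences were those of 2210010C04Rik (-2.57), a trypsinogen-like gene whose mean lay under the lower quartile of the arrays in both young pools, Cel (-2.47), Rnase1 (-2.34), Clps (-2.32) and Ctrb1 (-2.30), all of pancreatic enzymes or their cofactor.

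Skeletal muscle markers were higher for 6 of 9 in wild type (3 with arrays centred) and for 0 in Myc+/- liver. Over all genes 10.0% and 8.73% were higher. The summed signal of the muscle markers was 2666 to 3200 on the 5-month arrays and 3986 to 4114 on the 24-month arrays. Mb, myoglobin, rose by 1.09 ± 0.10, Myl1, a myosin light chain, by 0.76 ± 0.13 (not called without 5-month array 1), and Acta1, skeletal actin, by 0.73 ± 0.06. Intestine and gallbladder markers were lower for 2 of 5 past the filter (of 13 on the array), where 3.86% of all genes were lower. Their median was -0.54 over the 5 and -0.16 over all 13. Among those called was Fabp2, a fatty acid binding protein that liver also expresses, at -1.02 ± 0.16. Of 7 mesothelial markers 2 were higher (1 with arrays centred), with Gpm6a, a membrane glycoprotein, at 1.07 ± 0.11. The part of such tissue in the other results was not tested.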

How the data were processed

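The deposited values were log2 expression values of 35556 probe sets on 36 arrays, for which the submitters' processing notes name Affymetrix Expression Console and RMA, without versions. No scanner values were used, and the annotation came from the platform table, with gene types and promoters from RefSeq (GRCm38.p6). Per the labels, equal amounts of RNA of each mouse went into a pool, and kits for both 3' IVT and whole-transcript labelling are named.

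Values were used as deposited. Probe sets with 1 symbol and a liver mean above the 40th percentile entered limma 3.58.1 (R 4.3.3, eBayes with a trend): a fit over 36 arrays with 1 coefficient per pool (24 residual degrees of freedom), and a fit over 12 pool means with tissue, age-in-tissue and genotype-in-tissue terms (3 residual degrees of freedom). P-values were adjusted over all 13073 probe sets. The number of arrays limits precision to array-to-array error (median SD 0.0907). The scripts were tested on simulated data.

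The comparison, gene lists and rules were chosen with earlier results of these data known. Named genes were the 12 called genes with the largest difference in each direction (unnamed loci left out), up to 5 called members per list or up to 2 where none was called, the 6 genes per direction that differed most between genotypes, and Myc, with exceptions named in the text. Alternatives covered the filter, the scaling, the fit, the fold, single arrays and a replicate block.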

Additional observations from a re-analysis of the deposited data

Results flagged for a closer look

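Of 141 genes named in the text, 60 had an age difference in wild type liver that differed from the age difference in Myc+/- liver. This was an array-level limma test of the difference itself. Over all tested genes 1.27% were more positive and 1.29% more negative in wild type. Many genes were named for a large difference, some for this one, so the count of 60 follows largely from how they were chosen. The values are the wild type minus the Myc+/- age difference (log2), and each compares 4 RNA pools, without a spread between mice.

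For 12 genes the differences of the genotypes had opposite signs. The Myc+/- difference was itself called for 4 of them, Saa1, Saa2, Saa3 and Orm2. For Acta1, Myl1, Hmgcs1 and Nr1d1 it was small. Centring the arrays moved the median Myc+/- difference of all tested genes down, from 0.06 to -0.04. The positive Myc+/- difference of Nr1d1 (0.08) therefore has no settled direction. Saa1 differed by 7.40 (3.71 in wild type and -3.69 in Myc+/-) and Saa2 differed by 4.67 (3.70 in wild type and -0.96 in Myc+/-). Orm2 differed by 3.72 (3.11 in wild type and -0.61 in Myc+/-) and Saa3 differed by 3.09 (1.71 in wild type and -1.38 in Myc+/-). Mt1 differed by 2.48 (1.90 in wild type and -0.58 in Myc+/-) and Cyp3a44 differed by 1.00 (0.68 in wild type and -0.32 in Myc+/-). Socs3 differed by 0.98 (0.61 in wild type and -0.37 in Myc+/-) and Acta1 differed by 0.88 (0.73 in wild type and -0.16 in Myc+/-). Myl1 differed by 0.83 (0.76 in wild type and -0.07 in Myc+/-) and Hmgcs1 differed by 0.79 (0.62 in wild type and -0.17 in Myc+/-). Acot1 differed by -1.63 (-1.19 in wild type and 0.44 in Myc+/-) and Nr1d1 by -0.70 (-0.63 in wild type and 0.08 in Myc+/-).

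Where the differences of the genotypes had the same sign, 1 set of genes was more positive in wild type. The larger of these were Lcn2 (3.56), Chil1 (3.42), Orm3 (2.98), Slc22a26 (2.11), Cyp2a22 (2.06), Cyp2b9 (1.73) and Igha (1.62). Next were Atp6v0d2 (1.58), Apcs (1.46), Dmbt1 (1.45), Igfbp1 (1.24), Cyp2c39 (1.09), Moxd1 (0.94) and Muc1 (0.90). Smaller ones were Sqle (0.86), Cyp2c38 (0.79), Nqo1 (0.77), Creld2 (0.73), Lss (0.73), Tfrc (0.73) and Abcd2 (0.67). There followed Ighm (0.64) and Mb (0.59). 

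The values of Dmbt1, Cyp2a22 and 2210010C04Rik rest on young wild type readings with a mean under the lower quartile of the arrays, so their size is not exact.

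The remaining genes were more negative in wild type. Pancreatic and other genes with the most negative values were 2210010C04Rik (-2.57), Cpa1 (-2.53), Cel (-2.47), Rnase1 (-2.34), Clps (-2.32), Ctrb1 (-2.30) and Slco1a1 (-1.89). Less negative were Hsd3b5 (-1.65), Dbp (-1.17), Hspb1 (-1.05), Cd74 (-1.04), Selenbp2 (-0.96), H2-Ab1 (-0.83) and Cyp8b1 (-0.81). Below these in size were Nkg7 (-0.79), Ccl3 (-0.78), Wee1 (-0.78), Ngp (-0.73), Cyp2d9 (-0.72), Bhlhe41 (-0.71), Gstp1 (-0.63) and Acaa1b (-0.63). The smallest were Mki67 (-0.62), Cdh1 (-0.61) and Slc2a2 (-0.61). 

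Without the Myc+/- 5-month array that stood apart, an alternative chosen after seeing the data, 7 of these genes were no longer past both thresholds. They were Ighm (0.57), Cdh1 (-0.58), Slc2a2 (-0.57), Mki67 (-0.57), Gstp1 (-0.41), Acaa1b (-0.51) and Cyp2d9 (-0.55).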

How the results depend on the processing

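Each call compares 1 RNA pool with 1 other, so the error covers arrays and not mice, and a dim probe set (under the 40th percentile) was not tested. The 1309 probe sets higher and 568 lower in the old wild type pool became 834 and 1036 with arrays centred on their medians, and 1029 and 813 with quantile normalization repeated, while centring moved the median by -0.138. A minimum fold of 2 gave 355 and 132, and asking for 1.5-fold the same way in Myc+/- liver gave 804 and 327. Leaving out single arrays gave 1195 to 1430 higher and 558 to 629 lower. For the difference between genotypes this gave 141 to 177 more positive (161 with all arrays) and 152 to 165 more negative (157), and with no filter 240 were more negative. At the pool level it gave 3868 to 4018 higher and 2198 to 2278 lower. The other settings stayed within 1.5 times. Without the Myc+/- array that stood apart, added after seeing the data, the pool-level counts were 3774 and 2305.

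Replicate numbers name technical arrays and did not pair the pools (correlations of same-numbered arrays from -0.228 to 0.405). With the replicate number as a block, 1309 were higher and 568 lower, and 163 and 157 differed between genotypes. Of the genes checked, none reversed. The calls lost under single settings were in 13 genes, mostly with arrays centred.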

Other observations

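Of 205 tested lncRNA genes 9 were called higher and 14 lower (median -0.193), and of 60 miRNA genes 2 higher and 7 lower (median -0.266), against 10.0% and 3.86% of all genes. Among 5 tested genes that host snoRNAs by name (Snhg genes and Gas5), Snhg17 was lower (-1.43) and the other 4 were not called, with a median of -0.277 over the 5. These genes were chosen after values were seen.

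Of 11 pericentral hepatocyte markers 1 was higher (median 0.16), and of 9 periportal markers 2 were lower (median -0.16). Of 3 erythroid markers past the filter 0 were called in wild type liver (1 lower with arrays centred), and of 9 adipocyte markers 1 was called higher (0 with arrays centred). Of 5 genes of fetal and regenerating liver past the filter 2 were higher (1 higher and 1 lower with arrays centred).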
